A study of Mus musculus with 96 samples.

Results

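The miR-181 family was measured as 6 mature miRNAs, selected by name from the 1978 mature mouse miRNAs listed for every library: the 5p arms mmu-miR-181a-5p, mmu-miR-181b-5p, mmu-miR-181c-5p and mmu-miR-181d-5p and the 3p arms mmu-miR-181a-1-3p and mmu-miR-181a-2-3p. The prefix mmu, for mouse, is left out from here on. All 6 were found and all 6 passed the filter on low counts in every cell type. Small RNA of the mouse heart was sequenced in hematopoietic cells (HCs), fibroblasts (FBs), cardiomyocytes (CMs) and endothelial cells (ECs), in 4 libraries for each cell type at each of 6 timepoints, 96 libraries in all. D0 denotes control hearts without infarction, and D1, D3, D7, D14 and D28 denote the days after permanent ligation of a branch of the left coronary artery in male C57Bl/6J mice of 12 to 14 weeks of age. Each library holds the pooled RNA of 3 mice, or of 2 if 1 sample was lacking, so p-values describe the spread between pools and not between animals. The cell types of a timepoint came from the same mice. Which pools of different cell types share mice is not given in the sources used here, and tests between cell types treated the libraries as independent. Per the methods, a library each of ECs at D28, HCs at D0 and FBs at D0 was set aside there as an outlier without being named, and all libraries of these groups are used here. CMs were enriched by centrifugation, HCs with anti-CD45 beads, ECs with anti-CD144 beads and FBs by adherence to plates, and the cells were not sorted further, which limits each group as a model of its cell type.

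A miRNA gene is transcribed as a precursor that folds into a hairpin, and Dicer cuts from it a duplex of a 5p and a 3p arm, of which mostly a single strand is kept in an Argonaute protein. The seed, bases 2 to 8 from the 5′ end, is the main contact with target transcripts, so miRNAs with the same seed share many targets. In immune cells, miR-181a is known for its part in lymphocyte development, where it tunes the sensitivity of T cell receptor signalling in the thymus. In the endothelium, miR-181b is known to dampen NF-kB signalling through an importin that carries NF-kB into the nucleus, and in the heart miR-181c is known for its action on a mitochondrially encoded subunit of cytochrome c oxidase.

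The 5p arms are shown because they share a single seed, in capitals, and differ behind it. Their mature sequences, from RefSeq on GRCm38.p6, read 5′ to 3′ as follows.
miR-181a-5p: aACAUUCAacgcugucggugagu
miR-181b-5p: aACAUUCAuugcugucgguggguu
miR-181c-5p: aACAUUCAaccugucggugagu
miR-181d-5p: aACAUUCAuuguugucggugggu

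Of the 1679 mature miRNAs in the same sequence table, only these 4 carried ACAUUCA at bases 2 to 8. Counted from 1 at the 5′ end, miR-181b-5p differed from miR-181a-5p by A9U, C10U and A21G over 23 shared positions. Between miR-181b-5p and miR-181d-5p the only difference over 23 positions was C12U. The sequence of miR-181c-5p equalled that of miR-181a-5p with base 11 removed.

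The 3p arms are shown because they tell the loci of miR-181a apart, which the 5p arm cannot. Between them the differences were U5C and U16C, the former within the seed in capitals.
miR-181a-1-3p: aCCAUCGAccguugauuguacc
miR-181a-2-3p: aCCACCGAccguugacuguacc

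In the precursors of miR-181a, both mature arms are given in capitals. They show that the same 5p arm is cut from either hairpin.
Mir181a-1: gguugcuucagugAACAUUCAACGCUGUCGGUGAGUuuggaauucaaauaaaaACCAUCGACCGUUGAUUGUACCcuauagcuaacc
Mir181a-2: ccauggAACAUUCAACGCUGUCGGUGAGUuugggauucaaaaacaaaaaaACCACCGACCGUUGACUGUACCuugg

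The family is encoded by 6 hairpins in 3 clusters on GRCm38. Mir181a-1 (chr1:137966455-137966541) and Mir181b-1 (chr1:137966639-137966718) lie on the plus strand with 97 bases between them, in exons of the long noncoding RNA gene A430106G13Rik and in introns of Gm4258. Mir181a-2 (chr2:38852735-38852810) and Mir181b-2 (chr2:38853830-38853918) lie on the plus strand with 1019 bases between them, antisense to introns of Nr6a1, which encodes a nuclear receptor. Mir181b-2 also lies antisense to an exon of the unclassified transcript Gm44144. On the minus strand of chromosome 8, Mir181d (chr8:84178716-84178787) and Mir181c, whose 5p arm is at chr8:84178924-84178945, lie in an intron of Nanos3, which encodes an RNA-binding protein of the germ line.

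The total mature miRNA count ranged from 18286 to 65588543 per library, with medians of 17767778 in FBs, 13945010 in CMs, 11941956 in HCs and 3583270 in ECs. The lowest total belonged to replicate 3 of HCs at D0, in which the family rested on 265 counts, while each other library held at least 1981 counts of the family. Input RNA and PCR cycles were set per cell type (500 ng and 14 cycles in CMs, 50 ng and 16 in ECs, 150 ng and 15 in FBs and HCs), so differences between cell types and those settings cannot be told apart. The markers fixed for CMs, ECs, FBs and HCs were each highest in their own cell type. Of the lymphocyte markers, miR-150-5p was at a mean of 2544 CPM (the count as a share of the library's total, scaled to 1000000) in ECs and 2586 in HCs.

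How reads that match several members equally well were counted is not given in the sources used here, and 2 patterns in the counts bear on this. First, miR-181d-5p stood at 0.556 to 0.983 of the count of miR-181b-5p in every library, with a median ratio of 0.765. Over the 96 libraries the log2 CPM of the 2 miRNAs had a Pearson correlation of 0.98, given as a description, since the values share library and depth. Second, the hairpin counts of Mir181a-2 were 0.954 to 1.18 times those of Mir181a-1 in ECs, FBs and HCs, although the counts of their own 3p arms differed up to 25.0-fold in the same cell types. The counts of miR-181b-5p and miR-181d-5p are therefore treated as uncertain, and the hairpin counts were not used for levels. In counts of members below, both are counted, although their calls may rest in part on the same reads.

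**Figure D1:**
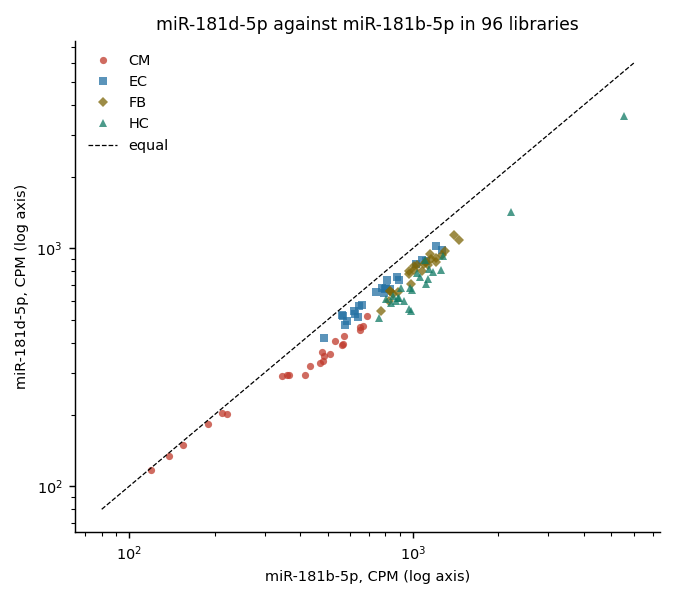
miR-181d-5p plotted against miR-181b-5p in CPM, both axes logarithmic, 1 point per library (96 libraries, coloured by cell type); the dashed line marks equal values. All points lie below the line, at 0.556 to 0.983 of the miR-181b-5p value, and move along it in parallel.

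MiR-181a-5p was the most abundant member in all 96 libraries. It supplied a median of 78.7% of the summed 5p arms in HCs, 64.8% in ECs, 59.5% in FBs and 54.9% in CMs. Its level was 3835 to 24921 CPM in HCs (median 5875), 1335 to 3831 in ECs (median 2923), 1672 to 4274 in FBs (median 2868) and 283 to 2241 in CMs (median 938). ECs and FBs were close in this order and HCs stood above both. MiR-181b-5p followed with medians of 1054 CPM in FBs, 990.01 in HCs, 787 in ECs and 475 in CMs. MiR-181d-5p had medians of 842 CPM in FBs, 681 in HCs, 662 in ECs and 332 in CMs. MiR-181c-5p was the scarcest 5p arm, with medians of 53.7, 49.7, 47.7 and 55.1 CPM in the same order of cell types, and its ranges overlapped, reaching from 7.27 to 149.7 CPM in CMs alone.

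The 3p arms divided the cell types differently. MiR-181a-1-3p was at a median of 290 CPM in HCs (196 to 2217), against 75.3 in ECs (47.9 to 154), 43.0 in FBs (26.1 to 70.01) and 38.1 in CMs (11.3 to 53.9). Its HC values lay above those of all libraries of the other 3 cell types. MiR-181a-2-3p had the opposite order at its top, with a median of 75.5 CPM in CMs (54.1 to 199), 52.2 in FBs (30.7 to 87.9), 50.6 in HCs (28.7 to 164) and 29.9 in ECs (17.1 to 110.05). All 4 ranges overlapped.

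**Figure D2:**
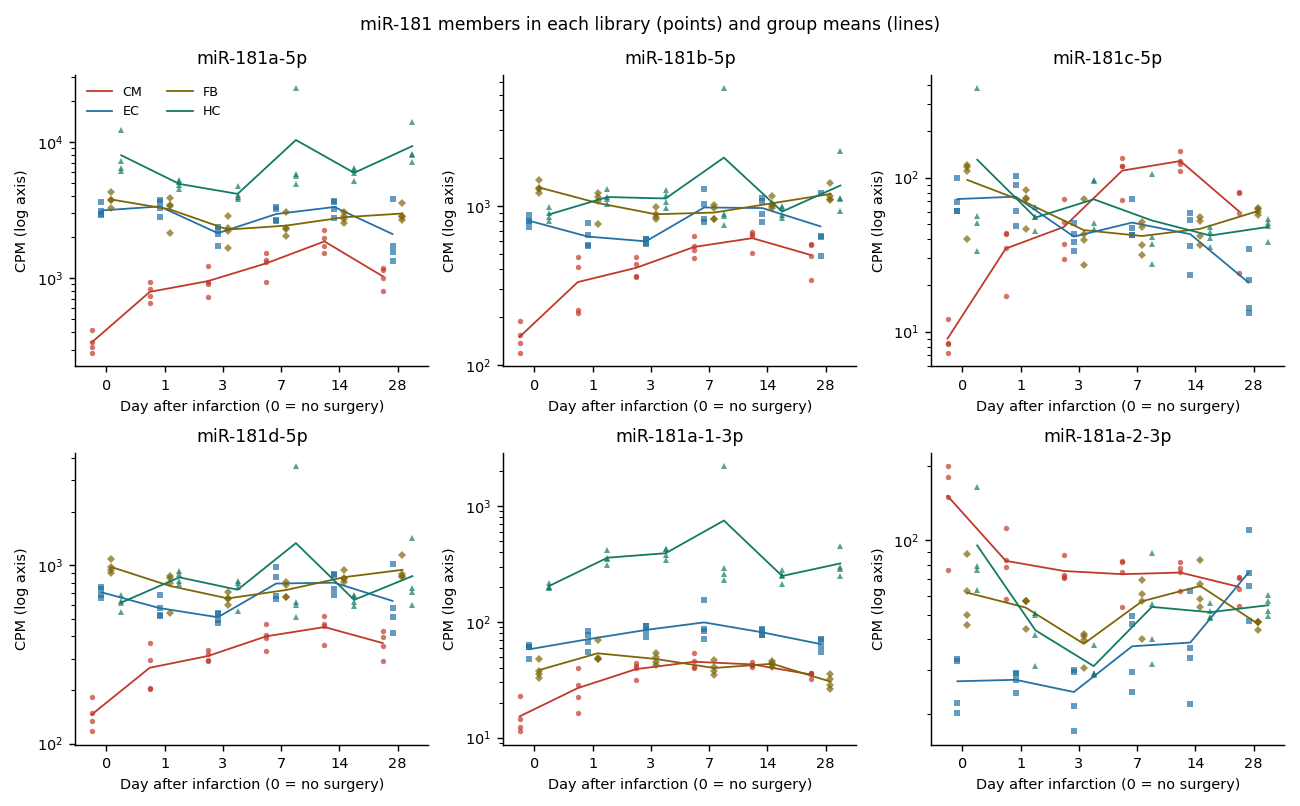
CPM (log axis) of each member by day, 1 panel per member, with 1 point per library and lines through the means of 4 libraries for CMs, ECs, FBs and HCs. The library of HCs at D7 with 24921 CPM of miR-181a-5p stands above its group in the panels of miR-181a-5p, miR-181b-5p, miR-181d-5p and miR-181a-1-3p, and miR-181a-2-3p is lower after D0 in CMs while the other members there are at higher CPM after D0.

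The remaining arms of the same hairpins were scarcer. MiR-181d-3p had at most 8 counts in a library, and miR-181b-1-3p and miR-181b-2-3p had mean levels of 7.81 and 5.14 CPM in HCs and no more than 1.33 CPM elsewhere. MiR-181c-3p, the partner of miR-181c-5p, had mean levels of 24.7 to 30.2 CPM over the cell types.

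Cell types were compared in a single fit over 96 libraries, as the mean over the 6 days, after scaling with TMM factors. TMM scaling assumes that most miRNAs do not differ, and log2 fold changes below are on that scale, with standard errors (SE) and adjusted p-values over 712 miRNAs. MiR-181a-2-3p was higher in CMs, where it differed from ECs by -2.73 ± 0.12, from FBs by -2.30 ± 0.12 and from HCs by -2.99 ± 0.12 (the other cell type minus CM), and it was higher in CMs with scaling by library size alone as well, by -1.24, -0.66 and -0.73. MiR-181a-1-3p was higher in HCs than in CMs by 1.17 ± 0.12, than in ECs by 1.41 ± 0.12 and than in FBs by 2.41 ± 0.12, and with library size alone the differences were 3.43, 2.20 and 3.05. Against CMs at D0 alone it differed by 0.41 ± 0.30 and did not pass (adjusted p = 0.248). Averaged over the days, miR-181a-5p was higher in HCs than in CMs, ECs and FBs by 0.60 ± 0.09, 0.49 ± 0.09 and 0.56 ± 0.09, and by 2.86, 1.27 and 1.23 with library size alone. Against ECs at D0 alone it differed by 0.53 and did not pass (adjusted p = 0.0527). The order was not the same on each day. At D1 the mean log2 CPM with TMM was 11.09 in HCs, 11.30 in CMs, 11.49 in ECs and 11.26 in FBs. At D3 it was 10.83 in HCs, 11.03 in CMs, 10.89 in ECs and 10.65 in FBs, and on the other days HCs were highest.

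Of the 36 tests (6 members by 6 pairs of cell types) 27 passed an adjusted p of 0.05, with 4 of 6 members in ECs against CMs, 3 of 6 in FBs against CMs, 6 of 6 in HCs against CMs, 3 of 6 in FBs against ECs, 5 of 6 in HCs against ECs and 6 of 6 in HCs against FBs. The shares of all miRNAs that passed in these comparisons were 69.4%, 75.7%, 77.7%, 71.8%, 77.7% and 85.7%, so such calls were common among all miRNAs. For miR-181b-5p, miR-181c-5p and miR-181d-5p the place of CMs depended on the scaling. MiR-181c-5p, for example, was 2.05 ± 0.13 lower in HCs than in CMs with TMM, and 0.15 higher with library size alone.

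In CMs, miR-181a-2-3p fell after infarction at every timepoint. It was at 76.2, 149, 179.8 and 199 CPM in the 4 libraries of D0 and at 77.5, 82.0, 62.8 and 74.9 CPM at D14. Replicates 2, 3 and 4 of D0 exceeded every later CM library, of which the highest had 112 CPM, while replicate 1 of D0 lay among them. The log2 fold change against D0 was -1.89 ± 0.37 for D1 (adjusted p = 0.00199) and -2.92 ± 0.38 for D3 (adjusted p = 2.9e-06). It reached -3.36 ± 0.39 for D7 (adjusted p = 4.07e-07) and -3.63 ± 0.40 for D14 (adjusted p = 1.47e-07), and D28 followed with -2.88 ± 0.38 (adjusted p = 1.44e-05). With library size alone it was -0.87, -1.004, -1.05, -1.02 and -1.21, which passed the test as well.

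MiR-181c-5p moved the other way in CMs. Its D0 libraries held 7.27 to 12 CPM and its D14 libraries 110.3 to 149.7 CPM, with no overlap. It rose by 1.29 ± 0.26 on D7 (adjusted p = 0.000191), by 1.22 ± 0.26 on D14 (adjusted p = 0.000367) and by 0.90 ± 0.26 on D28 (adjusted p = 0.0057), and with library size alone by 1.94 to 3.83 over the 5 days. Its 3p partner miR-181c-3p, which is not among the 6, changed by 0.24 ± 0.30 at D14 (adjusted p = 0.479).

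The sign of the other 4 members in CMs depended on the scaling. MiR-181a-5p was at 283 to 414 CPM at D0 and at 1522 to 2241 CPM at D14. Its log2 fold change at D14 was -0.13 ± 0.21 with TMM (adjusted p = 0.595) and 2.47 ± 0.23 with library size alone (adjusted p = 1.4e-08). The median of the 484 miRNAs tested changed by 0.41 with TMM and by 2.99 with library size alone between the same groups. MiR-181a-5p lay below that median. At D14 so did miR-181b-5p (-0.53 ± 0.18 with TMM, against 2.06 with library size alone), miR-181d-5p (-0.96 ± 0.20, against 1.63) and miR-181a-1-3p (-1.11 ± 0.28, against 1.49). A change of scaling moves all miRNAs of a library nearly alike. The place of a member relative to the median is therefore nearly the same under either scaling by construction. Over the 5 days the median change of all miRNAs in CMs was 0.20, 0.44, 0.35, 0.41 and 0.25 with TMM and 1.42, 2.37, 2.67, 2.99 and 1.99 with library size alone.

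**Figure D3:**
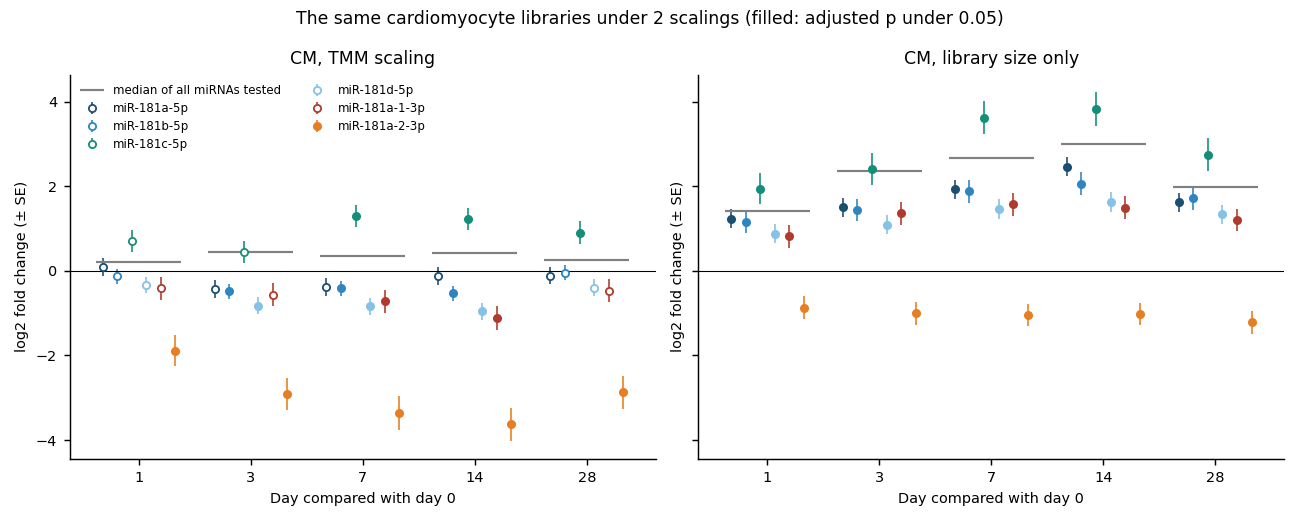
log2 fold change (± SE) of each member against D0 in the 24 CM libraries, with TMM scaling on the left and scaling by library size alone on the right; filled points have an adjusted p under 0.05 and grey bars give the median of the 484 miRNAs tested. MiR-181a-2-3p is below 0 and miR-181c-5p above 0 in both panels, and the other 4 members lie at or below 0 in all but 1 point on the left and above 0 on the right.

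Values that moved with the days in CMs are given here because their part in these results was not tested. MiR-1a-3p, the main miRNA of CMs, took 65.7% ± 5.71 (SD, n = 4) of the counts at D0 and 35.3% ± 4.53 at D14. Of the 4 CM markers, 3 were called higher and 1 lower at D14 with TMM (median log2 fold change 1.12). Reads without a match made up 29% to 42% of a library at D0 and 48.8% to 83.0% at D14, with no overlap. Every other marker list summed to higher CPM in each library of D14 than of D0, except the mural list, which was lower. By the test with TMM, 3 of 3 FB, 3 of 3 HC and 1 of 2 lymphocyte markers were higher at D14. Of the 2 EC markers 1 was higher and 1 lower, and of the 3 erythroid markers 2 were higher and 1 lower. The test called 1 of 2 mural markers lower. The 3 FB markers summed to 36.5 to 114 CPM at D0 and 1358 to 2188 at D14, the 2 EC markers to 4423 to 9789 and 19277 to 27651, and the 3 HC markers to 0.918 to 2.19 and 27.3 to 57.1. The lymphocyte markers went from 14.2 to 79.9 CPM at D0 to 128 to 205 at D14, the erythroid markers from 1686 to 1929 CPM to 2024 to 3400.5, and the mural markers from 22682 to 36325 CPM to 15754 to 18619. Most of the erythroid sum in CMs was miR-486a-5p, with a mean of 2210 CPM, against 11.6 for miR-451a and 2.05 for miR-144-3p. Among the cell types miR-486a-5p itself had its highest mean in CMs, and the source of the erythroid sum there was not tested. In these enriched cells, fewer cells of a type and less RNA per cell cannot be told apart.

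In total 16 of 30 tests of a member on a day passed in CMs, that is 1, 3, 5, 5 and 2 of 6 members from the first to the last day. The shares among all miRNAs were 25.0%, 55.2%, 69.0%, 67.1% and 54.3%. Over the 6 days together 5 of 6 members changed, all but miR-181a-5p (adjusted p = 0.149), beside 73.8% of all miRNAs.

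In FBs all 4 of the 5p arms fell at D3 and D7, and none differed from D0 at D28. At D3, miR-181a-5p was at 1672 to 2861 CPM against 3291 to 4274 at D0, and the groups did not overlap. It fell by 1.05 ± 0.18 at D3 (log2 fold change -1.05, adjusted p = 4.49e-05) and by 0.86 ± 0.18 at D7 (-0.86, adjusted p = 0.000436). MiR-181b-5p held 825 to 987 CPM at D3 against 1202 to 1453 at D0, a change of -0.88 ± 0.15 (adjusted p = 3.96e-05), and -0.74 ± 0.15 at D7 (adjusted p = 0.000282). MiR-181d-5p changed by -0.91 ± 0.16 at D3 (adjusted p = 4.68e-05) and by -0.65 ± 0.16 at D7 (adjusted p = 0.00165). These falls also passed with library size alone. Between D0 and D3 in FBs, the sums of the marker lists overlapped, among them the 3 HC markers (36.1 to 121 CPM and 32.2 to 115), the 4 CM markers (2058 to 4863 CPM and 2310 to 3313) and the 3 FB markers (40646 to 63149 CPM and 59771 to 88869). By the test, 1 of 2 mural markers was lower at D3 and no marker of the other lists passed. At D7 the mural sum was 28108 to 35779 CPM, above all 4 libraries of D0 (24568 to 27493 CPM). Relative to D0, with TMM, both lymphocyte markers were lower at D7 (median -1.03), as was 1 marker each of the HC, CM, FB, erythroid and mural lists. Reads without a match were 27.7% to 31.3% of a library at D0 and 35.3% to 40.5% at D3, with no overlap, and 30.6% to 38.4% at D7. The part of these values in the falls was not tested.

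MiR-181c-5p fell the furthest of the 6 in FBs. Its D0 libraries held 116, 39.7, 120.2 and 110.1 CPM, replicate 2 being far below the others and overlapping later days, and its D7 libraries held 31.5 to 51.7 CPM. The change was -1.43 ± 0.28 for D3 (adjusted p = 0.000196), -1.45 ± 0.29 for D7 (adjusted p = 0.000219) and -1.09 ± 0.28 for D14 (adjusted p = 0.00587). MiR-181c-3p, the other arm of its hairpin, changed by -0.09 ± 0.19 at D3 (adjusted p = 0.729). Of the 3p members, miR-181a-2-3p changed by -0.99 ± 0.22 at D3 (adjusted p = 0.000619) and miR-181a-1-3p by -0.01 ± 0.17 (adjusted p = 0.965).

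At D28 none of the 6 differed from D0 in FBs by edgeR (0 at an unadjusted p under 0.05, and 0 by DESeq2), and the changes lay between -0.54 and 0.07. From the first to the last day, 2, 5, 4, 1 and 0 of 6 members passed, all of them lower, beside 2.13%, 20.1%, 21.1%, 10.3% and 1.95% of all miRNAs called lower and 7.99%, 43.0%, 45.6%, 24.7% and 6.75% in either direction. The median change of all miRNAs with TMM was between -0.07 and 0.06. Both calls of D1, miR-181b-5p (-0.50, adjusted p = 0.0375) and miR-181d-5p (-0.53, adjusted p = 0.0361), were lost without any single library of D0. Over the 6 days 5 of 6 members changed, all but miR-181a-1-3p (adjusted p = 0.0655), beside 68.2% of all miRNAs.

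**Figure D4:**
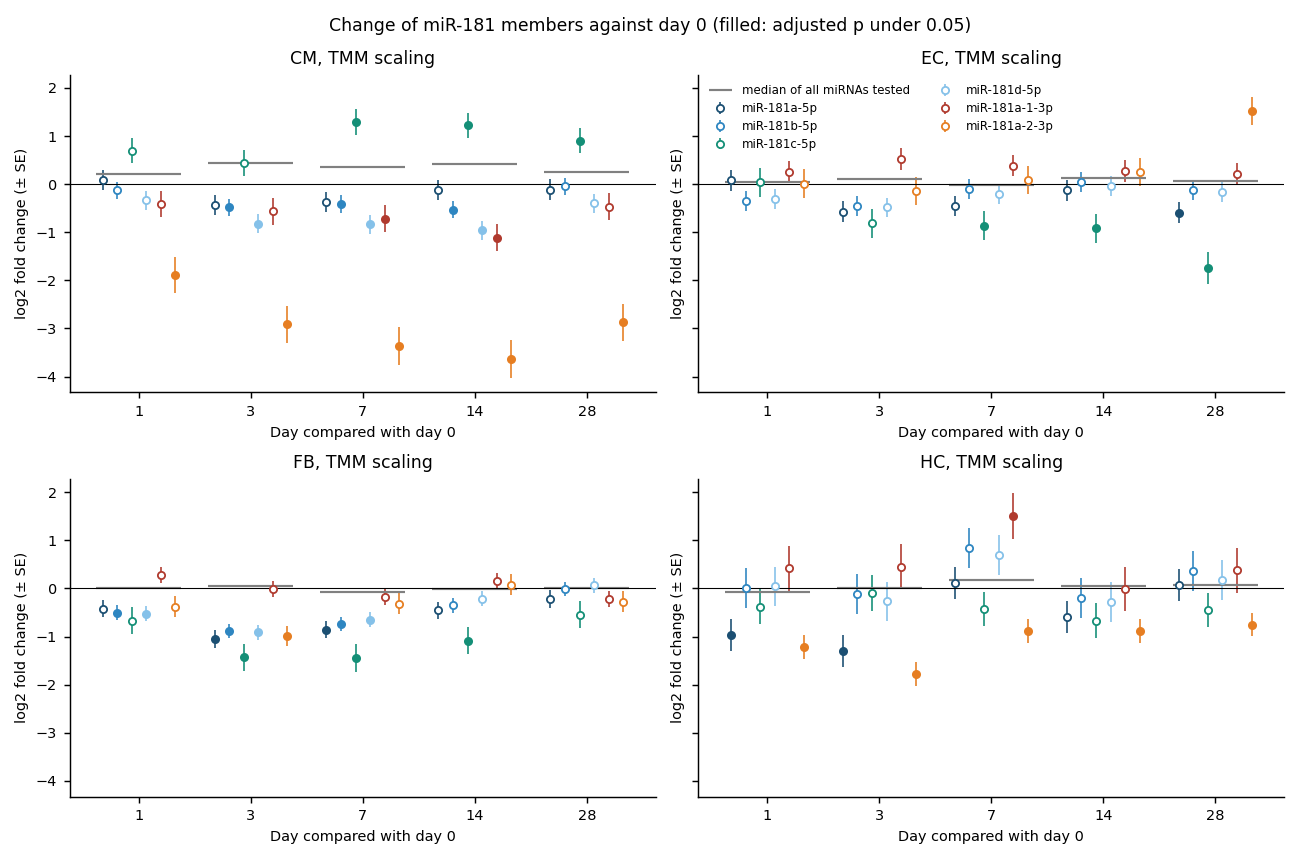
log2 fold change (± SE) of the 6 members against D0 with TMM scaling, 1 panel per cell type; filled points have an adjusted p under 0.05 and grey bars give the median of all miRNAs tested in that cell type. The 5p arms dip at D3 and D7 in FBs, and miR-181a-2-3p reaches -3.63 in CMs at D14 and 1.52 in ECs at D28.

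In ECs the clearest changes came at D28 and ran in opposite directions. MiR-181a-2-3p was at 20.3, 33.4, 22.1 and 32.8 CPM at D0 and at 47.6, 73.8, 110.1 and 65.9 CPM at D28, with no overlap, and rose by 1.52 ± 0.30 (adjusted p = 0.000166). MiR-181c-5p stood at 60.4 to 100.01 CPM at D0 and at 13.1 to 34.2 CPM at D28, on 9 to 85 counts, again with no overlap, and fell by 1.75 ± 0.33 (log2 fold change -1.75, adjusted p = 0.000134). Both calls also passed with library size alone. MiR-181c-3p fell there as well, by 1.05 ± 0.31 (log2 fold change -1.05, adjusted p = 0.00696).

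MiR-181a-5p differed in ECs at D28 by -0.60 ± 0.21 (adjusted p = 0.0241). Replicate 1 of D28 held 3831 CPM, above all 4 libraries of D0 (2886 to 3594 CPM), and the other 3 held 1335 to 1709 CPM, below all of them. The call was lost without replicate 1 of D0 (-0.55, adjusted p = 0.0629), without replicate 3 of D28 (-0.46, adjusted p = 0.0763), with the compared days alone (-0.69, adjusted p = 0.0639) and with library size alone (-0.58, adjusted p = 0.0522). Without replicate 1 of D28 the change was -1.06 (adjusted p = 8.59e-06), and miR-181b-5p (-0.48, adjusted p = 0.0209) and miR-181d-5p (-0.53, adjusted p = 0.00989) passed as well. In the marker lists replicate 1 of D28 had the highest EC sum (224230 CPM, against 103770 to 156470 in the other 3) and the lowest CM sum (21003 CPM, against 40385 to 80702). Between D0 and D28, the sum of the 4 CM markers went from 75957 to 134290 CPM to 21003 to 80702, that of the 3 FB markers from 2016 to 2845 CPM to 2195 to 7798, and that of the 3 HC markers from 6.65 to 25.4 CPM to 6.56 to 19.0. By the test, 4 of 4 CM markers and 1 of 2 each of the EC, lymphocyte and mural markers were lower at D28, 2 of 3 FB and 1 of 3 erythroid markers were higher, and 0 of 3 HC markers passed. Reads without a match were 48.5% to 67.3% of a library at D0 and 66% to 77.5% at D28, and the part of these values in the changes was not tested.

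From the first to the last day in ECs, 0, 0, 1, 1 and 3 of 6 members passed, beside 0%, 17.6%, 22.6%, 14.5% and 47.0% of all miRNAs. At D1 no member had an unadjusted p under 0.05 by edgeR and none passed by DESeq2. At D3, 5 members had an unadjusted p under 0.05 and DESeq2 called 4, the 5p arms, at -0.53 to -0.89. The calls of miR-181c-5p in the middle of the series, -0.86 for D7 (adjusted p = 0.0371) and -0.92 for D14 (adjusted p = 0.0432), were lost without any of 6 and any of 5 single libraries. Among the left-out libraries the highest adjusted p came without replicate 1 of D0, where the changes were -0.70 (adjusted p = 0.151) and -0.75 (adjusted p = 0.146). Both calls were also lost with library size alone, at -0.50 (adjusted p = 0.248) and -0.73 (adjusted p = 0.0976). Without a filter the adjusted p was 0.103 and 0.0504. Over the 6 days 3 of 6 members changed (miR-181a-5p, miR-181c-5p and miR-181a-2-3p), beside 58.2% of all miRNAs.

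In HCs, miR-181a-2-3p was lower than at D0 on every later day. The D0 libraries held 63.2, 79.0, 164 and 75.8 CPM, the third of these on 3 counts, and the D3 libraries held 28.7, 29.4, 37.9 and 29.0 CPM, with no overlap. It changed by -1.22 ± 0.25 on D1 (adjusted p = 0.000197) and by -1.77 ± 0.25 on D3 (adjusted p = 1.11e-06). Smaller changes followed with -0.89 ± 0.25 on D7 (adjusted p = 0.00394), -0.88 ± 0.24 on D14 (adjusted p = 0.0093) and -0.75 ± 0.24 on D28 (adjusted p = 0.026), and with library size alone those 3 were -0.47, -0.54 and -0.45 and did not pass. The call at D28 was also lost without replicate 2 or 4 of D0 and without replicate 3 or 4 of D28 (adjusted p up to 0.0886). MiR-181a-1-3p, from the other locus, was at 196 to 219 CPM at D0 and at 342 to 425 CPM at D3, where its log2 fold change was 0.45 ± 0.46 (adjusted p = 0.416).

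MiR-181a-5p in HCs was at 6068, 6441, 12195 and 7195 CPM at D0, at 4503 to 5259 CPM at D1 and at 3835 to 4725 CPM at D3, and D0 overlapped with neither. It fell by 0.97 ± 0.33 at D1 (log2 fold change -0.97, adjusted p = 0.017) and by 1.31 ± 0.34 at D3 (-1.31, adjusted p = 0.00169). With library size alone the change at D1 was -0.67 and did not pass (adjusted p = 0.114), and without replicate 4 of D1 the adjusted p was 0.0506. The marker lists of the HC libraries differed between the same days. From D0 to D3, the summed CPM went from 4578 to 5991 up to 12558 to 22708 for the 3 HC markers, from 54905 to 91837 down to 14781 to 21541 for the 2 EC markers and from 85776 to 132290 down to 38493 to 64736 for the 4 CM markers. The lymphocyte sum was 2461 to 4463 CPM at D0 and 1736 to 3511 at D3. On the TMM scale of the fold changes, 2 of 2 lymphocyte markers were lower at D1 (median -0.76) and 1 of 2 at D3 (median -0.53). Reads without a match were 34.3% to 51.6% of a library at D0, 52.1% to 73.8% at D1 and 59.3% to 62.5% at D3, with no overlap with D0, and the part of these shifts in the changes was not tested.

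At D7 a single HC library stood far above the other 3. Replicate 2 held 24921 CPM of miR-181a-5p against 4895 to 5835 in the other 3 libraries of D7. In the same library miR-181b-5p was at 5531 CPM against 761 to 893, miR-181d-5p at 3596 against 510.02 to 619, and miR-181a-1-3p at 2217 against 232 to 294. MiR-181a-2-3p, from the other locus, was at 88.8 CPM against 31.7 to 55.5, and miR-181c-5p at 105 against 27.4 to 41.4. The family made up 3.65% of the counts of this library, and no more than 1.82% of any other of the 96.

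Of 165 miRNAs averaging 100 CPM or more in these 4 libraries, 4 of the 6 highest ratios of replicate 2 to the highest of the others belonged to the family: 7.53 for miR-181a-1-3p, 6.19 for miR-181b-5p, 5.81 for miR-181d-5p and 4.27 for miR-181a-5p. The other places in the top 6, named after their values were seen, were held by miR-128-3p (9625 CPM, ratio 18.5) and miR-20b-5p (706 CPM, ratio 7.12). The library was not high in the lymphocyte markers miR-150-5p and miR-342-3p, with a sum of 2981 CPM against 2875 to 9395, nor apart in HC markers, with 15534 CPM against 9717 to 15075. In replicate 2 of HCs at D28 the 4 highest ratios to the highest of the other 3 libraries were those of miR-128-3p (2.05), miR-181b-5p (1.96), miR-181d-5p (1.92) and miR-181a-5p (1.72), while miR-181a-1-3p was at place 7 (1.515) and miR-20b-5p was not among the first 8.

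At D7 in HCs the call of miR-181a-1-3p rested on that library, and that of miR-181a-2-3p did not (-1.29 without it, adjusted p = 1.9e-05). With it, miR-181a-1-3p rose by 1.504 ± 0.47 (adjusted p = 0.0101). Without it, the change was -0.06 (adjusted p = 0.811), and miR-181a-5p (-0.82, adjusted p = 0.000733), miR-181d-5p (-0.56, adjusted p = 0.0431) and miR-181c-5p (-1.03, adjusted p = 0.00693) were called lower, where with it their changes were 0.12, 0.70 and -0.43 and did not pass. Without it the calls in HCs rose from 8 to 13 of 30, and all 6 members changed over the 6 days. The share of all miRNAs without that library was not computed. With it 3 of 6 members changed over the 6 days (miR-181a-5p, miR-181a-1-3p and miR-181a-2-3p), beside 73.5% of all miRNAs. Per day, with all libraries, 2, 2, 2, 1 and 1 of 6 members passed from the first to the last day, beside 54.3%, 59.0%, 49.5%, 28.1% and 24% of all miRNAs.

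Whether a change differed between cell types was tested as the change against D0 in a cell type minus the mean change in the other 3, and 31 of 120 such tests passed. All cell types are in each of these contrasts, so they share libraries. MiR-181a-2-3p differed in CMs on all 5 days, by -1.19 ± 0.32 at D1 to -3.19 ± 0.33 at D14, and in ECs from D3 to D28, by 1.47 ± 0.33 at D3 to 2.66 ± 0.34 at D28. MiR-181c-5p differed in CMs on all 5 days, by 1.31 ± 0.36 at D1 to 2.55 ± 0.37 at D7, in FBs at D3, D7 and D14, by -1.02 to -1.44, and in ECs at D28 by -1.93 ± 0.38. In HCs miR-181a-5p differed by -0.97 ± 0.26 at D1 and -0.73 ± 0.26 at D3, and at D7, where replicate 2 is among the libraries, miR-181a-1-3p, miR-181b-5p and miR-181d-5p differed by 1.39, 1.01 and 1.02. Of all 712 miRNAs, from the first to the last day, 20.5%, 39.9%, 44.8%, 43.8% and 39.6% passed for CMs, 2.25%, 16.2%, 16.4%, 16.6% and 39.9% for ECs, 2.81%, 7.87%, 30.9%, 30.5% and 10.1% for FBs and 26.8%, 33.7%, 19.5%, 5.48% and 1.97% for HCs.

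Ratios between members within a library do not depend on the scaling of that library. At D0, 22 of 30 comparisons of a ratio between cell types passed the two-sided exact permutation test after adjustment over the 30 (p = 0.0286, the smallest that 4 libraries against 4 can give, adjusted p = 0.039). The geometric mean ratio of miR-181a-1-3p to miR-181a-2-3p was 0.10 in CMs (0.06 to 0.30 over libraries), 0.64 in FBs (0.37 to 0.95), 2.17 in ECs (1.44 to 2.96) and 2.28 in HCs (1.29 to 3.19). CMs differed from each other cell type and FBs from ECs and HCs, while ECs and HCs were not told apart (exact permutation p = 0.886).

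The ratio of miR-181a-5p to its summed 3p arms at D0 was 2.09 in CMs (1.63 to 3.45), against 36.8 in ECs, 37.9 in FBs and 25.4 in HCs, so the 3p arms made up a far larger part of the miR-181a pair in CMs. The ratio of miR-181a-5p to miR-181b-5p ordered the cell types as HCs (8.61), ECs (3.88), FBs (2.89) and CMs (2.25), and all 6 pairs of cell types passed. The ratio of miR-181c-5p to miR-181d-5p had geometric means of 0.06 to 0.13, and only ECs and CMs were told apart. The highest mean, that of HCs, rested on replicate 3, with a ratio of 0.71 on 7 and 10 counts. The other HC libraries of D0 had ratios of 0.05 to 0.08.

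Over the days, 46 of 100 comparisons of a ratio with D0 reached an exact permutation p of 0.0286, the smallest possible. After adjustment 0 of 100 passed, with a lowest adjusted p of 0.0621. At the smallest p, here and between cell types at D0, passing depends on how many comparisons reach it. The adjusted test therefore cannot grade single ratios that separate fully. The values are therefore given as descriptions. In CMs the ratio of miR-181a-1-3p to miR-181a-2-3p went from 0.10 at D0 to 0.62 at D7, where the lowest library (0.49) lay above the highest of D0 (0.30), and miR-181a-5p to its 3p arms went from 2.09 to 15.7 at D14 (13.1 to 17.9). In HCs the former went from 2.28 at D0 to 12.6 at D3 (9.0 to 14.8) and was at 4.82 at D14, and the latter from 25.4 to 9.81 at D3 (8.69 to 11.6) and was at 24.4 at D28. In ECs the former went from 2.17 at D0 to 0.90 at D28 (0.56 to 1.47), where the highest library of D28 (1.47) overlapped the lowest of D0 (1.44).

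MiR-181a-5p to miR-181b-5p went from 7.14 to 12.1 in HCs at D0 to 3.14 to 4.24 at D3, with a mean of 7.09 at D28. In CMs it stayed between 1.80 and 3.37 in every library.

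**Figure D5:**
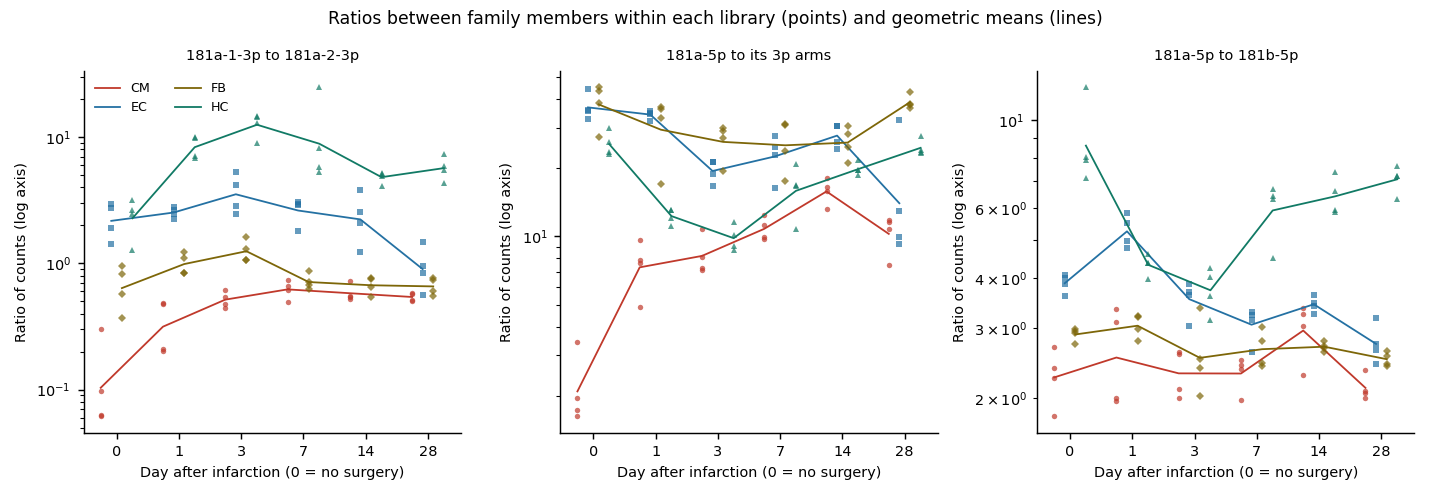
Ratio of counts (log axis) by day within each library, 1 point per library and lines through the geometric means of 4 libraries, for miR-181a-1-3p to miR-181a-2-3p (left), miR-181a-5p to the sum of its 3p arms (middle) and miR-181a-5p to miR-181b-5p (right). The 3p arms of the miR-181a loci lie near 0.10 in CMs and above 2 in ECs and HCs at D0, and HCs reach 12.6 at D3.

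Across the 24 group means of log2 CPM on the TMM scale, among 706 other miRNAs, the closest patterns were those of miR-30e-3p (Pearson r = 0.91), miR-6966-3p (0.90) and miR-6412 (0.89) for miR-181a-2-3p, of miR-223-3p (0.88), miR-7043-3p (0.87) and miR-339-3p (0.87) for miR-181a-1-3p, and of miR-29a-3p (0.88), miR-29c-3p (0.87) and miR-1a-2-5p (0.86) for miR-181c-5p. For miR-181b-5p they were miR-3074-1-3p (0.82), miR-125b-2-3p (0.80) and miR-28a-5p (0.79), for miR-181d-5p miR-345-3p (0.83), miR-152-5p (0.81) and miR-3074-1-3p (0.79), and for miR-181a-5p miR-1668 (0.68), miR-1912-3p (0.67) and miR-6983-3p (0.64). Within the family, miR-181b-5p and miR-181d-5p had r = 0.95 and the 3p arms of miR-181a -0.09. These are descriptions over group means that share cell type, scaling and library preparation.

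Beside the family, 8 other miRNAs known to act on NF-kB signalling (miR-146a-5p, miR-146b-5p, miR-155-5p, miR-10a-5p, miR-21a-5p, miR-223-3p, miR-31-5p and miR-126a-3p) were counted. Among them, miR-223-3p is also on the list of HC markers and miR-126a-3p on that of EC markers. The list was chosen with earlier results of these data known, so its counts are descriptions. In FBs, 4 of 8 were higher and 0 lower at D3, with a median log2 fold change of 1.38, beside 43.0% of all miRNAs called in either direction. On that day 5 of the 6 miR-181 members were lower with a median of -0.95, beside 20.1% of all miRNAs called lower. A link between the list and the family was not tested. At D28 in FBs 4 of 8 were higher and 0 lower, with a median of 1.28, beside 6.75% of all miRNAs in either direction. The calls of either day were those of miR-155-5p, miR-21a-5p, miR-31-5p and miR-146b-5p. In HCs at D3 2 of the 8 were higher and 5 lower (59.0% of all miRNAs called), in ECs at D28 2 were higher and 1 lower (47.0%), and in CMs at D14 3 were higher and 4 lower (67.1%).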

How the data were processed

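Small RNA was prepared with a NEBNext kit and a gel cut, and the count tables were used as the authors deposited them, 1 raw count per mature miRNA and library. Per the study's methods, reads were trimmed with Trim Galore, reads under 18 nt were removed, and the nf-core smrnaseq workflow matched the rest to the mature and then the hairpin sequences of miRBase. The submitters' processing notes name Bowtie2, SAMtools and mm10, while aligner settings and versions are not given in the sources used here. The table line for reads without a match (25.6% to 83.0% of the reads of a library) names no miRNA and was left out.

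Members were tested with edgeR 4.0.16 in R 4.3.3 (quasi-likelihood test, TMM factors, filterByExpr, Benjamini-Hochberg adjustment over all miRNAs tested, adjusted p under 0.05) in 24 libraries per cell type (608 miRNAs tested in HCs, 563 in FBs, 484 in CMs and 421 in ECs), or in 96 libraries for comparisons of cell types (712). SE are the log2 fold change divided by the square root of F. Ratios used log2 counts with 0.5 added and a two-sided exact permutation test of 70 arrangements. Alternatives were DESeq2 1.42.0, library size alone, no filter, a replicate block, the compared days alone, D0 alone, libraries left out, and, added after seeing the data, miR-181b-5p and miR-181d-5p summed. The fits were tested on simulated data. Total counts per library, given with the results, set the precision of the low members.

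Named were the 6 members, the other arms of their hairpins, the 3 miRNAs with the most similar pattern for each, cell type markers and an NF-kB list. Members and lists were chosen with earlier results of these data known. The total RNA-seq of the study was not analysed here.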

Additional observations from a re-analysis of the deposited data

Results flagged for a closer look

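A sample far from the other 3 of its group was looked for in 144 groups (6 members by 24 groups), and 19 were found. A rate of 1 in 20, or 7.2, would hold for independent and normally distributed values. The members share libraries and are not independent, and the share over all miRNAs was not computed. The count of 19 is therefore a description and no result about the family. HCs held most of the 19. Replicate 2 of D7 was high in miR-181a-5p (24921 CPM), miR-181b-5p (5531 CPM), miR-181d-5p (3596 CPM) and miR-181a-1-3p (2217 CPM), and replicate 2 of D28 in miR-181a-5p (13970 CPM), miR-181b-5p (2213 CPM) and miR-181d-5p (1425 CPM). In replicate 3 of D0, miR-181c-5p (383 CPM) and miR-181a-2-3p (164 CPM) were high on 7 and 3 counts, and in replicate 3 of D3 miR-181a-2-3p (37.9 CPM) was high.

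In ECs the samples apart were replicate 1 of D28 for miR-181a-5p (3831 CPM), replicate 3 of D7 for miR-181c-5p (72.8 CPM) and replicate 2 of D0 for miR-181a-1-3p (47.9 CPM). In FBs they were replicate 2 of D0 for miR-181c-5p (39.7 CPM), replicate 4 of D28 for miR-181d-5p (1141 CPM), replicate 2 of D1 for miR-181a-1-3p (70.01 CPM), and, for miR-181a-2-3p, replicate 4 of D1 (44.03 CPM) and replicate 3 of D28 (43.5 CPM). In CMs it was replicate 1 of D3 for miR-181a-2-3p (87.1 CPM).

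The change against D0 in a cell type differed from the mean change of the other 3 in 31 of 120 edgeR tests (adjusted p under 0.05), which share libraries. In CMs miR-181a-2-3p differed by -1.19, -1.53, -2.67, -3.19 and -2.89 over the 5 days and miR-181c-5p by 1.31, 1.65, 2.55, 2.40 and 2.06. There miR-181a-5p differed by 0.73 and 0.94 (D1 and D3) and miR-181a-1-3p by -0.93 and -0.99 (D7 and D14). In ECs miR-181a-2-3p differed by 1.47, 1.52, 1.4992 and 2.66 from D3 on, and at D28 miR-181a-5p by -0.79 and miR-181c-5p by -1.93. In FBs miR-181c-5p differed by -1.22, -1.44 and -1.02 (D3, D7 and D14), miR-181a-2-3p by 1.02 and 1.43 (D7 and D14) and miR-181b-5p by -0.87 (D7). In HCs miR-181a-5p differed by -0.97 and -0.73 (D1 and D3), and at D7 miR-181a-1-3p by 1.39, miR-181b-5p by 1.01 and miR-181d-5p by 1.02. Replicate 2 of HCs at D7, high in these members, enters every D7 contrast, those of CMs, ECs and FBs included.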

How the results depend on the processing

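Scaling changed most. With library size alone the median change of all miRNAs was larger in CMs, as given above, and lay between -0.10 and 0.59 in the other 3 cell types. Under it 50 of 156 single results changed sign, 35 of them with a value past the threshold before or after, which are the following. In CMs, from D1 to D28, the changes became 1.15, 1.44, 1.88, 2.06 and 1.71 for miR-181b-5p, 0.87, 1.09, 1.46, 1.63 and 1.33 for miR-181d-5p and 0.81, 1.36, 1.57, 1.49 and 1.2048 for miR-181a-1-3p, and from D3 on 1.4976, 1.93, 2.47 and 1.62 for miR-181a-5p. Between cell types, EC minus CM became 0.9954 for miR-181b-5p, 1.12 for miR-181d-5p and 1.23 for miR-181a-1-3p. FB minus CM became 1.43 for miR-181b-5p, 0.25 for miR-181c-5p, 1.42 for miR-181d-5p and 0.38 for miR-181a-1-3p. HC minus CM became 1.61 for miR-181b-5p, 0.15 for miR-181c-5p and 1.42 for miR-181d-5p. HC minus EC became 0.61 for miR-181b-5p, 0.21 for miR-181c-5p, 0.30 for miR-181d-5p and 0.5045 for miR-181a-2-3p, and HC minus FB 0.17 for miR-181b-5p and 0.0024 for miR-181d-5p. Without a filter HC minus EC became 0.36 for miR-181b-5p, 0.0604 for miR-181d-5p and 0.26 for miR-181a-2-3p, and at D0 alone it became 0.87 for miR-181a-2-3p, while for miR-181c-5p EC minus CM became 0.32 and FB minus CM 0.49. Apart from the scaling and the left-out libraries, the cause was not tested.

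Counts that moved by over 1.5 times were, with library size alone, 30 of 30 changes against D0 in CMs (16), 3 of 30 in ECs (5), 5 of 6 members over the days in ECs (3) and 55 of 120 differences between cell types in change (31), the main count in brackets. Without a filter they were 2 of 6 members over the days in CMs (5), 5 of 6 in HCs (3), 9 of 30 changes in CMs (16) and 3 of 30 in ECs (5). DESeq2 called 5 of 6 over the days in ECs (3) and 10 of 30 changes there (5), and the compared days alone gave 10 of 30 there. For these alternatives and those below, the share of all miRNAs called was not computed, so the counts describe the members alone. With library size alone the median of all miRNAs in CMs rose as well, as given above.

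Leaving out 1 library at a time gave 5 to 6 members over the days and 16 to 21 changes in CMs, 3 to 5 and 2 to 12 in ECs (lowest without replicate 1 of D0, highest without replicate 1 of D28), 5 to 6 and 10 to 13 in FBs, and 3 to 6 and 7 to 13 in HCs (highest without replicate 2 of D7). Leaving out a replicate number gave 26 to 29 differences between cell types and 22 to 29 differences in change. Without replicate 2 of D7 in HCs, miR-181a-5p, miR-181d-5p and miR-181a-1-3p were at -0.82, -0.56 and -0.0621 at D7, the lowest values with a library left out, and the highest, without replicate 3, were 0.44, 1.05 and 1.87. HC minus EC of miR-181a-2-3p lay between -0.296 without replicate 1 and 0.0086 without replicate 4. For ratios, 0 to 0 calls were made with a library left out. The comparisons left with 3 against 4 libraries cannot go below a two-sided exact p of 0.0571, and the others were adjusted together with them.

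Replicate 3 of ECs at D28, replicate 2 of FBs at D0 and replicate 3 of HCs at D0, known from earlier results as farthest from their group, were left out together in place of the unnamed outliers, which gave 6 changes against D0 in ECs, 11 in FBs and 8 in HCs. This ended the calls of miR-181a-5p in ECs at D28 (adjusted p = 0.0763), of miR-181b-5p and miR-181d-5p in FBs at D1 (both 0.0694) and of miR-181a-2-3p in HCs minus ECs (0.0509). Same-numbered libraries correlated by 0.002 to 0.026 on average in their deviations from group means, with a lowest value of -0.473. Between cell types of the same day the average was 0.026, against -0.009 for libraries with other numbers. Such averages cannot show whether same-numbered pools share mice. A replicate block gave 16 changes against D0 in CMs, 10 in FBs, 8 in HCs and 5 in ECs, 29 differences between cell types and 27 differences in change. Of the calls against D0, it ended those of miR-181b-5p and miR-181d-5p in FBs at D1 (adjusted p = 0.0567 and 0.0508). Depth limits the scarce members, above all miR-181c-5p and both 3p arms in ECs at D28 and in replicate 3 of HCs at D0.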
